A study of Mus musculus with 20 samples.

Results

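Immunoglobulin and B lineage transcripts were followed in brain tissue of aged mice 7 weeks after stroke. The 9 genes examined, out of 46078 in the count tables, were listed by symbol: Ighm, Ighg2b, Ighg2c, Igkc, Jchain, Cd79a, Cd79b, Ms4a1 and Mzb1. Each symbol matched 1 Ensembl gene, in that order ENSMUSG00000076617, ENSMUSG00000076613, ENSMUSG00000076612, ENSMUSG00000076609, ENSMUSG00000067149, ENSMUSG00000003379, ENSMUSG00000040592, ENSMUSG00000024673 and ENSMUSG00000024353. Male C57BL/6J wild-type mice aged 18 months underwent DH stroke, in which a distal branch of the middle cerebral artery is occluded and the animal is then kept in low oxygen. Starting 1 week later, they were injected 3 times per week for 6 weeks with vehicle or with 4 g/kg HPBCD, a cyclodextrin that binds cholesterol. Peri-infarct tissue, dissected beside the removed infarct, and the corresponding contralateral tissue were sequenced from each of 10 mice, which gave 4 groups of 5 libraries. The treatment of a library was not checked against any gene, so every difference between treatments takes its direction from the deposited labels alone. All mice had a stroke and were perfused with saline before dissection, so no group represents uninjured brain, and males alone were studied.

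B cells carry an antibody on their surface as part of the B cell receptor, in which the antibody chains sit beside the signalling chains Cd79a and Cd79b. Once activated, B cells may switch from the μ heavy chain to a γ, α or ε chain and may mature into plasma cells, which secrete antibody and stop making much of the receptor. An antibody chain is made from a variable segment joined to a constant region, so a B cell clone reads 1 heavy and usually 1 light chain variable gene, and its transcripts hold both parts. Lymphocytes are scarce in healthy brain parenchyma and are known to gather around old infarcts.

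Gene counts per library ran from 14445021 to 22171627. A level is given as the deposited count of read pairs or as CPM, the count scaled to library size with TMM factors over the 20 libraries, and a count of 3 was taken as the floor, equal to 0.135 to 0.208 CPM. Intervals and floors cover counting error only, since read pairs carry no molecular identifiers. In bulk tissue, fewer cells of a type and less RNA per cell cannot be told apart. Neuronal markers were present in every library (5 genes summed to 2151 to 10011 CPM), as brain tissue requires. The 5 choroid plexus markers stood apart in both libraries of HPBCD replicate 3, at 682 CPM in the peri-infarct and 636 CPM in the contralateral tissue. They were also higher across the HPBCD peri-infarct group, with a median of 155 CPM against 10.8 CPM in vehicle peri-infarct, 4.33 CPM in vehicle contralateral and 6.41 CPM in HPBCD contralateral libraries.

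Reference sequence is shown for genes on whose counts the results turn. The first pair is the hinge exon of Ighg2b (chr12:113307261-113307326, minus strand) and of Ighg2c (chr12:113288263-113288325, minus strand) in GRCm38, 66 and 63 bases long, neighbouring IgG genes whose counts moved in opposite directions. Capitals mark the longest stretch that both exons share, 15 bases.
Ighg2b: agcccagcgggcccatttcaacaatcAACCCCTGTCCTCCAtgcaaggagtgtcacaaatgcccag
Ighg2c: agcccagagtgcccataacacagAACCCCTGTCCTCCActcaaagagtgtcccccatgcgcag

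Of the 75-base windows of the Ighg2c transcripts, 75 bases being the read length, 0.48% also occurred in another gene, and for Ighg2b the share was 0.768%. Over the rest of their length, a read of that size fits a single gene.

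The other stretches are the last 120 bases of 3 variable segments, chosen after their counts were seen because each took the largest or second largest share of variable gene counts in a library. They lie at chr6:69607275-69607394 (minus strand), chr6:68121708-68121827 (plus strand) and chr12:114657353-114657472 (minus strand) of GRCm38. Capitals mark the codon of the conserved cysteine, after which the antigen contact loop known as the third complementarity-determining region begins.
Igkv4-55: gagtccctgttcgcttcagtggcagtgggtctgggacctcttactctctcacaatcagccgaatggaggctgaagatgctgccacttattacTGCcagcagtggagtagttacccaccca
Igkv1-117: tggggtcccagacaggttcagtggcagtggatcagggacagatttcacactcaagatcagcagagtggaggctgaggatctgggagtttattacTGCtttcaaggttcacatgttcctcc
Ighv1-15: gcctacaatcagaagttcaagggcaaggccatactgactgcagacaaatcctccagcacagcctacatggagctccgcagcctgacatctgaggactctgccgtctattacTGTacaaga

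Peri-infarct tissue held more light chain and joining chain RNA than contralateral tissue under both treatments. In vehicle-treated mice, Igkc and Jchain were higher and Ighg2c was lower in the peri-infarct tissue, while Ighm showed no change that passed the test. In HPBCD-treated mice, Cd79a and Cd79b were also higher, and in vehicle-treated mice neither passed the filter on low counts. Cd79a and Cd79b passed it through the peri-infarct libraries, and Jchain did so under both treatments, so those differences are descriptions. Between treatments, the peri-infarct libraries differed in Cd79a, higher with HPBCD, and in Ighg2c, lower with HPBCD. In contralateral tissue no member passed the test.

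**Figure D1:**
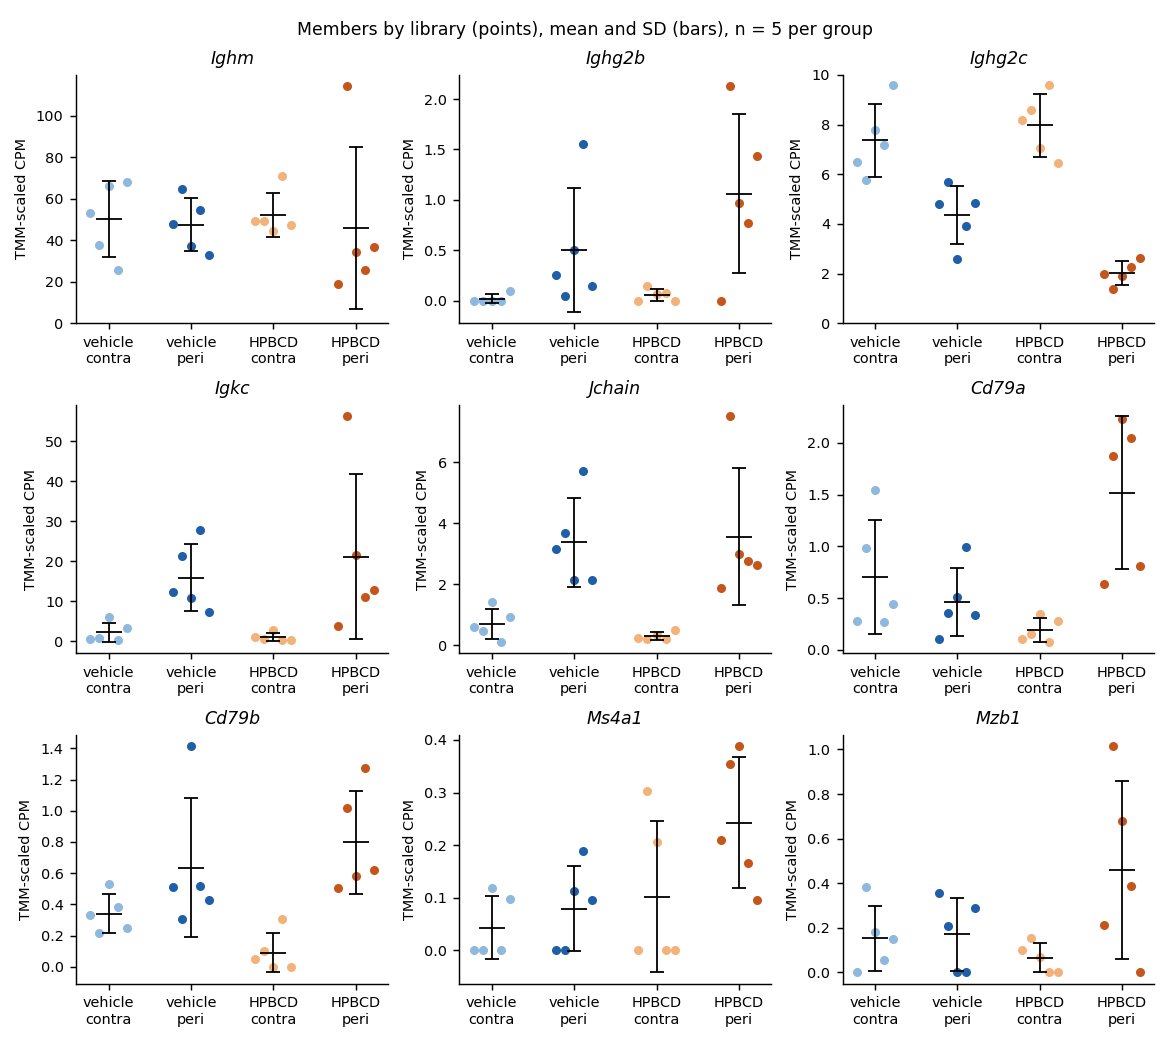
TMM-scaled CPM of the 9 genes in each library (points) by group, with the mean and SD over 5 libraries (bars) and a separate vertical axis for each gene. Igkc and Jchain are high in both peri-infarct groups, Ighg2c is lowest in the HPBCD peri-infarct group, and Ms4a1 stays under 0.4 CPM throughout.

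Igkc, the constant region of the κ light chain, which most mouse antibodies use, lies at chr6:70726435-70726966 and consists of a single exon. It was counted 11, 14, 102, 7 and 66 times in the vehicle contralateral libraries (replicates 1 to 5) and 241, 414, 191, 592 and 154 times in the vehicle peri-infarct libraries. The groups did not overlap. Its mean level rose from 2.21 ± 2.44 CPM to 15.9 ± 8.43 CPM (SD, n = 5), a log2 fold change of 2.84 (SE 0.65, adjusted p = 0.0115 in edgeR). The contralateral libraries that reached over 50 counts were replicates 3 and 5, and without replicate 3 the log2 fold change was 3.64 (adjusted p = 0.00765 in edgeR). In HPBCD-treated mice the contralateral counts were 21, 13, 42, 5 and 7 and the peri-infarct counts 91, 1109, 442, 199 and 269, again without overlap. The means were 1.08 ± 1.05 and 21.1 ± 20.6 CPM, and the log2 fold change was 4.34 (SE 0.75, adjusted p = 0.000328 in edgeR). HPBCD peri-infarct replicate 2 alone held 1109 of the 2110 counts of its group, and without it the log2 fold change was 3.52 (adjusted p = 0.000132 in edgeR). Without the contralateral or peri-infarct library of replicate 3, where choroid plexus markers were high, it was 5.04 or 4.30, and each was called.

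Jchain, the small protein that links IgA and IgM antibodies into polymers and is made abundantly by plasma cells, lies at chr5:88519809-88527891 on the minus strand. In vehicle-treated mice it was counted 11, 9, 24, 2 and 19 times in contralateral and 62, 72, 38, 121 and 45 times in peri-infarct libraries. The lowest peri-infarct library lay above the highest contralateral one. Its level was 0.713 ± 0.495 CPM in contralateral and 3.37 ± 1.46 CPM in peri-infarct tissue, a log2 fold change of 2.23 (SE 0.47, adjusted p = 0.00869 in edgeR). With HPBCD the counts were 5, 4, 5, 3 and 9 in contralateral and 45, 148, 62, 50 and 55 in peri-infarct libraries, so the separation held there too. The log2 fold change was 3.53 (SE 0.46, adjusted p = 3.66e-05 in edgeR). Under both treatments Jchain passed the filter on low counts through its peri-infarct libraries, so these differences are descriptions.

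Markers of other cells moved with Igkc and Jchain between regions. In HPBCD-treated mice all 5 markers of meninges and fibroblasts were called higher in peri-infarct tissue, by 3.50 to 4.69 log2 units, and their sum was 292 to 958 CPM against 22.1 to 78.5 CPM. In vehicle-treated mice 1 of the 5 was called, and the sum was 45.1 to 256 CPM against 13.2 to 93.4 CPM. All 5 border macrophage markers and the 4 T cell markers that passed the filter, of 6, were also higher with HPBCD, and 1 of 5 and 0 of 1 with vehicle. The T cell markers that failed it in vehicle-treated mice each had more counts in peri-infarct tissue, such as Cd3e with 109 against 14. Spearman's rho of Igkc with the sum of the meningeal and fibroblast markers was 0.68 over the 20 libraries and 0.03 within the 10 from peri-infarct tissue. The part of these cells in the region differences was not tested.

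These calls were read against the share of all genes called. In vehicle-treated mice, 4 of the 9 members passed the filter on low counts and 2 were called higher, Igkc and Jchain, where 10.5% of 15801 genes tested were called higher. Ighg2c, 1 of the 4, was called lower, where 9.7% of all genes were. Groups without overlap were found for 13.4% of all genes and for 3 of those 4 members. In HPBCD-treated mice, 6 members passed and 4 were called higher, with 30.3% of 16047 genes higher, and 1 was called lower, with 24.3% lower. Groups did not overlap for 5 of those 6 members and for 42.5% of all genes. A member that passed the filter only through its high group had to differ, so these counts are descriptions.

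**Figure D2:**
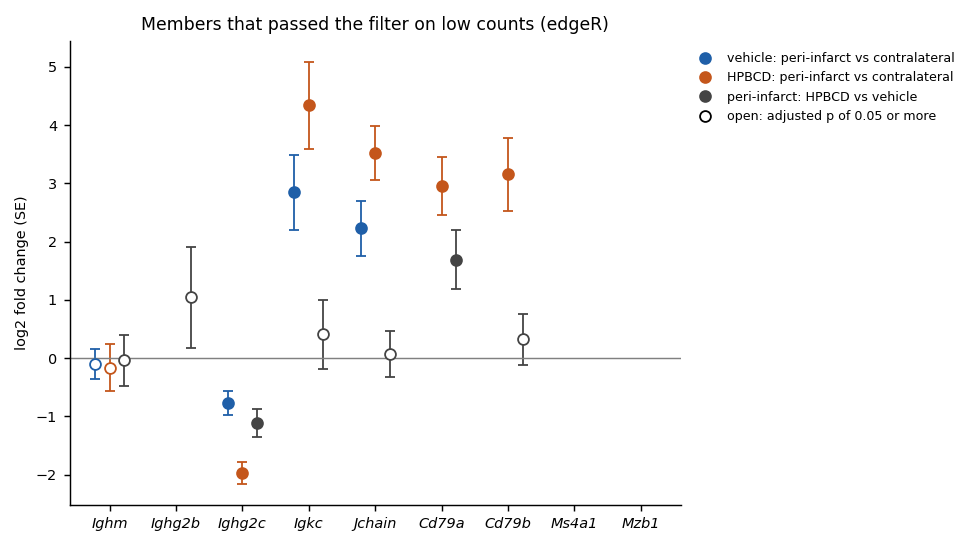
Log2 fold change and SE of each member that passed the filter on low counts, in the region comparison of each treatment and in the peri-infarct comparison of treatments; filled points had an edgeR adjusted p under 0.05. Igkc, Jchain, Cd79a and Cd79b lie above 0 in the HPBCD region comparison and Ighg2c lies below 0 in all 3 comparisons.

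Ighm, the constant region of the μ heavy chain made by naive B cells and early plasma cells, lies at chr12:113418558-113422730 on the minus strand and had a mean level of 26.0 CPM per kb of exon over the 20 libraries, against 18.9 CPM per kb for Igkc, 4.10 CPM per kb for Ighg2c and under 1 CPM per kb for the other members. The order of the first pair differed by region: Igkc was below Ighm in contralateral tissue (4.15 against 26.7 CPM per kb with vehicle, 2.02 against 27.7 with HPBCD) and above it in peri-infarct tissue (29.9 against 25.2 with vehicle, 39.6 against 24.4 with HPBCD). Between Igkc and Ighm, Spearman's rho was 0.02 over the 20 libraries and 0.76 within the 10 from peri-infarct tissue. It was counted 969, 692, 1119, 475 and 1383 times in vehicle contralateral and 935, 1260, 661, 1154 and 691 times in vehicle peri-infarct libraries, which overlap widely. The log2 fold change was -0.09 (SE 0.26, adjusted p = 0.831 in edgeR). With HPBCD the contralateral counts were 988, 973, 648, 933 and 839 and the peri-infarct counts 447, 2258, 707, 466 and 771. The log2 fold change of -0.16 (SE 0.41) did not pass the test (adjusted p = 0.76 in edgeR). That result rested on HPBCD peri-infarct replicate 2, the same library that led in Igkc and Jchain. Without it Ighm was lower in peri-infarct tissue by a log2 fold change of -0.86 (adjusted p = 0.00168 in edgeR), and lower in HPBCD than in vehicle peri-infarct tissue by -0.73 (adjusted p = 0.0367 in edgeR).

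Counts of Ighm per count of Igkc separated the regions without overlap, as Igkc alone already did, so the ratio restates that difference. The ratio ran from 10.97 to 88.1 in vehicle contralateral and from 15.4 to 187 in HPBCD contralateral libraries, against 1.95 to 4.49 in vehicle and 1.60 to 4.91 in HPBCD peri-infarct libraries. The 216 immunoglobulin variable genes of the tables summed to 10, 14, 45, 4 and 26 counts in vehicle contralateral libraries and to 205, 212, 102, 464 and 126 in vehicle peri-infarct libraries. With HPBCD the sums were 7, 16, 45, 2 and 6 in contralateral and 91, 989, 418, 181 and 205 in peri-infarct libraries. Summed CPM differed between regions by 3.41 log2 units in vehicle-treated mice and by 4.28 log2 units in HPBCD-treated mice (log2 of CPM plus 0.1, two-sided exact permutation test, p = 0.00794 for each, the smallest 5 against 5 libraries can give, adjusted p = 0.0159 over 4 comparisons). That test treats the regions of a mouse as independent. Exchanging regions within mice gave an exact permutation p of 0.0625 for each treatment, the smallest that 5 pairs can give, so a paired test of this kind could not pass; every mouse had the higher value in peri-infarct tissue. In peri-infarct tissue the difference between HPBCD and vehicle was 0.43 log2 units and did not pass (exact permutation p = 0.579, adjusted p = 0.587).

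Heavy chain variable counts were few beside the heavy chain constant counts of contralateral tissue. All 5 vehicle contralateral libraries together held 33 heavy chain variable counts, against 4638 of Ighm and 682 of Ighg2c. In the HPBCD peri-infarct libraries the same sums were 779, 4649 and 209. Rank correlations over the 20 libraries are given as descriptions, since the libraries come from 10 mice and fall into regions of unlike composition. Spearman's rho with the summed variable genes was 0.98 for Igkc, 0.93 for Jchain and -0.04 for Ighm. Within the 10 peri-infarct libraries alone, rho was 0.95 for Igkc, 0.96 for Jchain and 0.71 for Ighm.

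**Figure D3:**
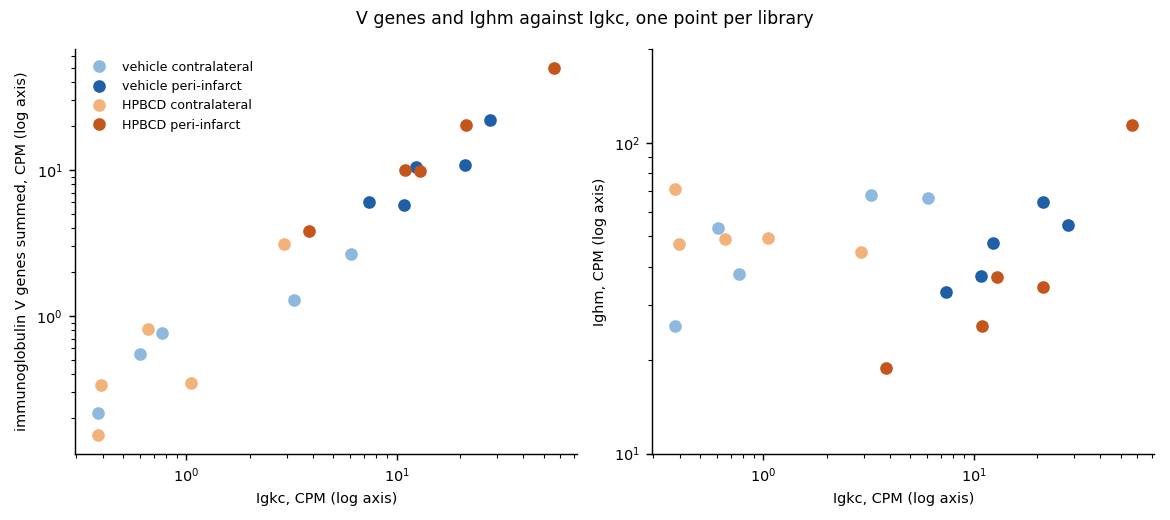
CPM of the summed variable genes (left) and of Ighm (right) against CPM of Igkc, one point per library, on log axes. The variable genes rise along with Igkc from contralateral to peri-infarct libraries, whereas Ighm spans a like range in both regions, 25.8 to 71.0 CPM in contralateral and 18.8 to 115 CPM in peri-infarct tissue.

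In some libraries a few variable genes held much of the variable counts, and in others the counts were spread. Igkv4-55, printed above, held 128 of the 205 variable counts of vehicle peri-infarct replicate 1, a share of 62.4% (95% exact binomial interval 55.4% to 69.1%), and 91 of 205 in HPBCD peri-infarct replicate 5 (44.4%, 37.5% to 51.5%). Igkv1-117 held 273 of 989 in HPBCD peri-infarct replicate 2 (27.6%, 24.8% to 30.5%), and Ighv1-15, a heavy chain segment, had 212 counts there. Of the counts of these genes over all libraries, 93.5% for Igkv1-117 and 93% for Ighv1-15 came from that library. In vehicle peri-infarct replicate 4, 62 variable genes were counted and the leading one held 8.41% of counts (6.05% to 11.3%). The leading gene likewise held 9.94% in HPBCD peri-infarct replicate 4 and 13.2% in replicate 1, and 7 genes together held at least 50% of counts in each. The number of variable genes with at least 1 count was 14 to 62 in vehicle and 28 to 65 in HPBCD peri-infarct libraries, and 2 to 21 in each contralateral group. Some variable genes share long stretches, and 29.8% of the 75-base windows of Igkv4-55 and 30.9% of those of Igkv1-117 occurred in other genes, so a count of a named variable gene is uncertain.

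Ighg2c, the IgG2c heavy chain of C57BL/6 mice, fell in peri-infarct tissue under both treatments. It lies at chr12:113285325-113288932 on the minus strand. In vehicle-treated mice it was counted 118, 106, 131, 132 and 195 times in contralateral and 94, 111, 46, 83 and 101 times in peri-infarct libraries. On the CPM scale the groups did not overlap, 5.78 to 9.60 against 2.60 to 5.70 CPM. The log2 fold change was -0.76 (SE 0.21, adjusted p = 0.0238 in edgeR). This call was lost without vehicle peri-infarct replicate 4 (adjusted p = 0.0602 in edgeR), vehicle contralateral replicate 3 (0.0579) or replicate 5 (0.0741). With HPBCD the contralateral counts were 164, 170, 102, 126 and 114 and the peri-infarct counts 47, 27, 39, 41 and 55, a log2 fold change of -1.97 (SE 0.18, adjusted p = 2.71e-06 in edgeR).

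In peri-infarct tissue Ighg2c was lower with HPBCD than with vehicle, at 2.03 ± 0.469 against 4.37 ± 1.17 CPM, a log2 fold change of -1.11 (SE 0.24, adjusted p = 0.0153 in edgeR). That call held without each library in turn. The fall was steeper with HPBCD than with vehicle, with a region by treatment interaction of -1.22 (SE 0.28, adjusted p = 0.0193 in edgeR). Neuronal markers moved the same way: their 5 genes summed to 7563 to 9304 CPM in vehicle contralateral, 4503 to 6420 in vehicle peri-infarct, 9275 to 10011 in HPBCD contralateral and 2151 to 4790 in HPBCD peri-infarct libraries. The part of neurons in the Ighg2c counts was not tested. The genes closest to Ighg2c in rank over the 20 libraries, among 14748 genes with a mean of at least 1 CPM, were Azin2 (Spearman's rho 0.97), Rph3a (0.96), Diras2 (0.95), Efhd2 (0.95) and Ppa1 (0.95). This ranking for Ighg2c was chosen after its values were seen.

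**Figure D4:**
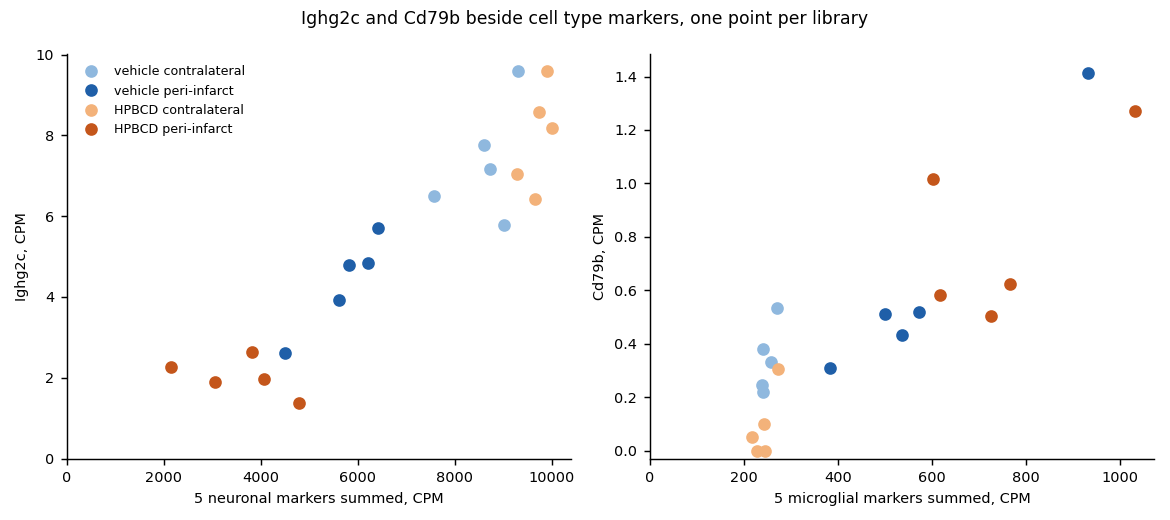
Left, CPM of Ighg2c against the summed CPM of 5 neuronal markers; right, CPM of Cd79b against the summed CPM of 5 microglial markers, one point per library. Ighg2c and the neuronal sum are both lowest in the HPBCD peri-infarct libraries, and the highest Cd79b level, 1.41 CPM, is in vehicle peri-infarct replicate 3.

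Ighg2b, the neighbouring IgG2b heavy chain at chr12:113302965-113307933, went the other way but stayed low. It had 0, 0, 0, 0 and 2 counts in vehicle contralateral, 5, 1, 9, 33 and 3 in vehicle peri-infarct, 0, 3, 1, 1 and 0 in HPBCD contralateral and 0, 42, 20, 14 and 30 in HPBCD peri-infarct libraries. HPBCD peri-infarct replicate 1 had none, which allows up to 3 counts. It did not pass the filter in either region comparison. The summed counts of the HPBCD groups, 106 in peri-infarct and 5 in contralateral, gave a rate ratio of 17.5 (95% exact binomial interval 7.28 to 55.1). For vehicle-treated mice the sums were 51 and 2, a ratio of 23.8 with an interval of 6.25 to 201. These intervals leave out the spread between mice, which was wide. Between treatments in peri-infarct tissue the log2 fold change was 1.04 (SE 0.86, adjusted p = 0.389 in edgeR), and 2.14 without vehicle peri-infarct replicate 4 (adjusted p = 0.12).

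Other heavy chain isotypes were counted from a list of constant genes. Igha, the IgA heavy chain, was counted 1, 7, 11, 1 and 2 times in vehicle contralateral, 12, 5, 53, 138 and 3 times in vehicle peri-infarct, 0, 3, 20, 0 and 7 times in HPBCD contralateral and 159, 194, 140, 94 and 74 times in HPBCD peri-infarct libraries. All HPBCD peri-infarct libraries lay above all HPBCD contralateral ones, and the log2 fold change was 4.13 (SE 0.65, adjusted p = 0.000158 in edgeR). Igha passed the filter through its HPBCD peri-infarct libraries, so this difference is a description. Between treatments in peri-infarct tissue Igha differed by 1.60 log2 units (SE 0.75), which did not pass (adjusted p = 0.135 in edgeR). Ighg1, the IgG1 heavy chain, was uneven: HPBCD peri-infarct libraries held 0, 28, 417, 182 and 11 counts and vehicle peri-infarct libraries 2, 0, 3, 50 and 0 (log2 fold change 3.55, SE 1.40, adjusted p = 0.0863 in edgeR). Vehicle contralateral replicate 3 had 26 Ighg1 counts, and the other 4 libraries of its group had none. Ighg3 was counted at most 2 times in any library, and Ighe, the IgE heavy chain, had no count in any of the 20.

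Isotype make-up varied between libraries. Among counts on the 8 heavy chain constant genes, Igha made up 7.57% to 24.1% in HPBCD peri-infarct and 0.36% to 9.42% in vehicle peri-infarct libraries, with a median of 0.26% in HPBCD contralateral and 0.163% in vehicle contralateral libraries. Ighm had the most counts of these genes in every library, from 53.3% in the lowest HPBCD peri-infarct library to 90.8% in the highest vehicle peri-infarct library. These shares take all Ighm and Ighg2c counts as the base, although heavy chain variable counts were few beside them in contralateral tissue, and whether those counts come from rearranged antibody transcripts was not tested.

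**Figure D5:**
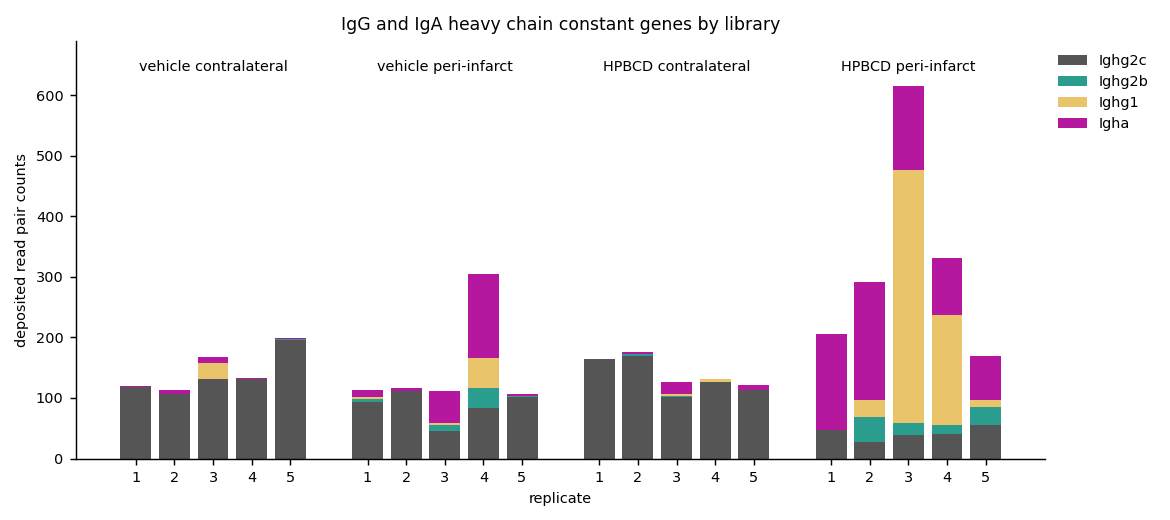
Deposited counts of the IgG2c, IgG2b, IgG1 and IgA heavy chain genes, stacked for each library, replicates 1 to 5 in each group. Contralateral bars are mostly Ighg2c, while Igha is at least 74 counts in every HPBCD peri-infarct library and Ighg1 reaches 417 in replicate 3.

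Of the receptor signalling chains, Cd79a differed between treatments in peri-infarct tissue. Cd79a, which together with Cd79b passes the signal of the B cell receptor into the cell, lies at chr7:24897381-24902197. It was counted 5, 18, 26, 5 and 9 times in vehicle contralateral and 2, 7, 9, 21 and 7 times in vehicle peri-infarct libraries, which overlap, and it did not pass the filter in that comparison. With HPBCD the contralateral counts were 2, 3, 5, 1 and 5 and the peri-infarct counts 15, 37, 46, 37 and 17. Those groups did not overlap, with a log2 fold change of 2.96 (SE 0.50, adjusted p = 0.000273 in edgeR). Cd79a passed the filter there through its HPBCD peri-infarct libraries, so this difference is a description.

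Between treatments in peri-infarct tissue Cd79a was at 1.52 ± 0.741 CPM with HPBCD and 0.459 ± 0.331 CPM with vehicle, a log2 fold change of 1.69 (SE 0.51, adjusted p = 0.0389 in edgeR). Of 7 members tested there, 2 were called, Cd79a and Ighg2c, where 21.4% of 16224 genes were called, 12.4% higher and 9% lower. Cd79a passed the filter mainly through its HPBCD libraries, so this count is a description. The Cd79a call was lost without vehicle peri-infarct replicate 1, 2 or 5 (edgeR adjusted p = 0.0753, 0.0895 and 0.0799) and without HPBCD peri-infarct replicate 3 or 4 (0.0959 and 0.0845). The region difference of Cd79a was larger with HPBCD than with vehicle by 3.54 log2 units (SE 0.83, adjusted p = 0.0198 in edgeR), and 9.41% of 16758 genes had a called interaction, as had 2 of 7 members. Higher Cd79a counts in vehicle contralateral libraries, 63 in all against 16 in HPBCD contralateral libraries, are part of that interaction. Of the 75-base windows of Cd79a, 4.48% also occurred in the transcript Gm32220.

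Markers of meninges and fibroblasts rose in the same comparison. All 5 (Col1a1, Col1a2, Col3a1, Dcn and Lum) were called higher in HPBCD than in vehicle peri-infarct tissue, and their sum was 292 to 958 CPM against 45.1 to 256 CPM. The 3 erythrocyte genes that passed the filter were also higher with HPBCD, with a summed level of all 5 of 9.14 to 80.1 CPM against 5.46 to 10.8 CPM. None of those markers was at 0 in all libraries of either group. Of the 4 choroid plexus markers that passed, 2 were called higher with HPBCD, Folr1 (log2 fold change 2.61, adjusted p = 0.0133 in edgeR) and Clic6 (1.81, adjusted p = 0.0493), and all 5 summed to 26.2 to 682 CPM against 6.18 to 75.8 CPM. Of 5 markers of border macrophages, 3 were called higher with HPBCD, and of 6 T cell markers 5 passed the filter and 0 were called. Spearman's rho of Cd79a with the meningeal and fibroblast sum was 0.71 over the 20 libraries and 0.83 within the 10 from peri-infarct tissue. Both differ between treatments within those 10 libraries, so the second value partly restates the treatment difference. The part of these cells in the Cd79a difference was not tested.

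Cd79b lies at chr11:106311341-106314762 on the minus strand. It was counted 6, 4, 9, 7 and 5 times in vehicle contralateral, 10, 6, 25, 11 and 9 times in vehicle peri-infarct, 1, 2, 0, 4 and 0 times in HPBCD contralateral and 12, 20, 12, 23 and 13 times in HPBCD peri-infarct libraries. The HPBCD regions did not overlap (log2 fold change 3.15, SE 0.63, adjusted p = 0.000948 in edgeR), and without HPBCD contralateral replicate 4 the log2 fold change was 4.06 (adjusted p = 0.00035). Cd79b passed the filter there through its HPBCD peri-infarct libraries, so this difference is a description. It failed the filter in the vehicle comparison, where the counts overlap. Peri-infarct levels did not differ between treatments by more than the spread (log2 fold change 0.32, SE 0.43, adjusted p = 0.604 in edgeR). The interaction for Cd79b was 2.27 log2 units (SE 0.82) and did not pass (adjusted p = 0.0799 in edgeR), but it passed with the mouse as a replicate block (2.44, SE 0.65, adjusted p = 0.0381 in edgeR), without vehicle peri-infarct replicate 3 (2.77, adjusted p = 0.0212) and without HPBCD contralateral replicate 4 (3.18, adjusted p = 0.0448).

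The 5 microglial genes summed to 931 CPM in vehicle peri-infarct replicate 3, the highest of its group and the library with the highest Cd79b level, and to 1032 CPM in HPBCD peri-infarct replicate 4, where Cd79b was at 1.27 CPM. All 5 were called higher in peri-infarct tissue under both treatments. The same libraries had the highest sums of 6 T cell markers in their groups, 46.6 and 32.8 CPM, and Spearman's rho of Cd79b with that sum was 0.79 over the 20 libraries and 0.78 over the 10 from peri-infarct tissue. Most of the T cell sum was Cd4, and the highest sum of all, 56.0 CPM, was in vehicle contralateral replicate 1, where Cd4 had 1003 counts and Cd79b had 6. In the vehicle region comparison Cd4 was the T cell marker that passed the filter, and it was not called (log2 fold change 0.24, adjusted p = 0.897 in edgeR). The other T cell markers failed the filter there, and their summed counts were higher in peri-infarct than in contralateral tissue. Cd3d had 30 against 0, Cd3e 109 against 14 and Cd3g 70 against 8. Cd2 had 70 against 10 and Cd8a 112 against 9. The part of either cell type in the Cd79b counts was not tested. The genes closest to Cd79b in rank over the 20 libraries were Gldn (Spearman's rho 0.92), Gm14569 (0.92), Sall1 (0.91), Irf5 (0.91) and Ucma (0.90). Members and immunoglobulin genes were left out of this ranking; Jchain, at 0.94, was closer to Igkc than any gene ranked. For Igkc the closest of those ranked were Dhx37 (0.90), Accs (0.87), Cep112 (0.86), Dnah7b (0.85) and Tsku (0.84).

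Ms4a1 encodes CD20, the surface marker of mature B cells that plasma cells lack, and lies at chr19:11249675-11266241. Its counts were 0, 0, 2, 0 and 2 in vehicle contralateral, 0, 0, 2, 4 and 2 in vehicle peri-infarct, 0, 6, 3, 0 and 0 in HPBCD contralateral and 5, 7, 8, 3 and 2 in HPBCD peri-infarct libraries. At most 3 libraries of a group lay above the floor, so these levels are near the limit of detection. The summed counts of HPBCD and vehicle peri-infarct tissue, 25 and 8, gave a rate ratio of 3.0 (95% exact binomial interval 1.31 to 7.69, counting error only). Between HPBCD peri-infarct and contralateral tissue the sums were 25 and 9, with a ratio of 2.30 and an interval of 1.04 to 5.59. Ms4a1 did not pass the filter in any comparison, and without the filter it was not called (adjusted p = 0.236 in edgeR between treatments in peri-infarct tissue, 0.353 between regions with HPBCD).

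Mzb1, a chaperone of the endoplasmic reticulum that helps plasma cells and marginal zone B cells assemble antibody, lies on chromosome 18. It was counted 0, 7, 3, 1 and 3 times in vehicle contralateral, 7, 4, 0, 0 and 6 times in vehicle peri-infarct, 2, 3, 1, 0 and 0 times in HPBCD contralateral and 5, 20, 14, 7 and 0 times in HPBCD peri-infarct libraries. The groups overlapped in every comparison. Summed counts of 46 in peri-infarct and 6 in contralateral tissue of HPBCD-treated mice gave a rate ratio of 6.34 (95% exact binomial interval 2.70 to 18.2, counting error only). In vehicle-treated mice the sums were 17 and 14, and the interval of the ratio, 0.525 to 2.48, spans 1. Of the 75-base windows of Mzb1, 51.5% also lie in a transcript annotated as SPATA24 on the same strand. SPATA24 is not among the genes counted, so Mzb1 counts may include its read pairs and are uncertain.

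In contralateral tissue, 3 members passed the filter between treatments and none was called by edgeR, nor was any of the 15469 genes tested (0%). At an unadjusted p under 0.05 there were 1224 genes, and DESeq2 called 53, none of them a member. Igkc differed by -1.06 log2 units (SE 0.75, adjusted p = 0.754 in edgeR), with -0.26 without vehicle contralateral replicate 3 and -1.79 without HPBCD contralateral replicate 3, Ighg2c by 0.10 (SE 0.16, adjusted p = 0.909 in edgeR) and Ighm by 0.05 (SE 0.23, adjusted p = 0.977 in edgeR). Summed contralateral counts were lower with HPBCD for Igkc (88 against 200, rate ratio 0.476, 95% exact binomial interval 0.366 to 0.614), Jchain (26 against 65, 0.432, 0.263 to 0.691), Cd79a (16 against 63, 0.274, 0.148 to 0.481) and Cd79b (7 against 31, 0.244, 0.0907 to 0.565), where the intervals cover counting error only and leave out the spread between mice. Vehicle contralateral replicate 3 held 102 of the 200 Igkc counts. The intervals of the other members spanned 1, with ratios of 1.02 for Ighm, 1.07 for Ighg2c, 2.70 for Ighg2b, 2.43 for Ms4a1 and 0.463 for Mzb1. For the summed variable genes the ratio was 0.83, with an interval of 0.607 to 1.13. Igkc and Jchain did not pass between treatments in peri-infarct tissue either, at 0.41 (SE 0.60, adjusted p = 0.637 in edgeR) and 0.07 (SE 0.39, adjusted p = 0.904 in edgeR).

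Further genes were read from lists of the pathway. Low genes among them passed the filter through the group where they were high, as Slamf7, Pou2af1 and Cxcl13 did, so the counts below are descriptions. Of 16 B cell genes, 9 passed the filter in each region comparison and 7 were called higher, 0 lower, in each, beside 10.5% and 30.3% of all genes: Cd22, Cd72, Cd37, Btk, Blnk, Syk and Lyn. Their median log2 fold change among the 9 was 1.26 in vehicle and 1.88 in HPBCD-treated mice, against 0.01 and 0.03 over all genes. Cd22, an inhibitory receptor, rose by 3.43 log2 units in vehicle (SE 0.58, adjusted p = 0.00356 in edgeR) and by 4.19 log2 units in HPBCD-treated mice (SE 0.33, adjusted p = 9.86e-07 in edgeR). Cd72 and Blnk are named here after their values were seen. Microglia and other myeloid cells also make several of these genes, Cd22 among them in aged brain, and the microglial markers rose in the same comparisons. Pax5, the factor that keeps B cell identity, was near the floor, with 3 to 17 counts per library in HPBCD peri-infarct tissue and at most 10 elsewhere. Between treatments in peri-infarct tissue 1 of 9 B cell genes was called, a share near the 9% of all genes called lower. This was Fcer2a, lower with HPBCD by a log2 fold change of -1.001 (SE 0.24, adjusted p = 0.0201 in edgeR), and the median of the 9 was 0.62 against 0.01 over all genes.

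Of 12 plasma cell genes, 4 of the 9 that passed were called higher in vehicle peri-infarct tissue, 0 lower, and 7 of 11 were higher with HPBCD, 0 lower, where 10.5% and 30.3% of all genes were called higher. Slamf7, a surface receptor that plasma cells share with other immune cells, rose by 3.41 log2 units (SE 0.61, adjusted p = 0.00444 in edgeR) in vehicle and by 5.24 log2 units (SE 0.62, adjusted p = 1.75e-05 in edgeR) in HPBCD-treated mice. Sdc1, the plasma cell marker CD138, which epithelial cells also carry, was higher in HPBCD than in vehicle peri-infarct tissue, at 6.65 ± 2.66 against 1.84 ± 0.649 CPM (log2 fold change 1.84, SE 0.32, adjusted p = 0.0128 in edgeR). Pou2af1, a coactivator of antibody genes in B cells and plasma cells, was also higher there, with 14 to 46 counts against 2 to 15 (log2 fold change 2.05, SE 0.54, adjusted p = 0.0255 in edgeR). Altogether 4 of 11 plasma cell genes were called higher with HPBCD and 0 lower in that comparison, where 12.4% of all genes were called higher, with a median of 0.46 against 0.01 over all genes. The choroid plexus, whose markers were higher in the same libraries, is an epithelium, and its part in the Sdc1 counts was not tested. Xbp1, the factor of the secretory programme, is also made by brain cells and was at 50.9 to 76.8 CPM in all 20 libraries.

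Of 10 genes that attract B cells or keep them alive, 3 of 7 that passed were called higher in vehicle and 5 of 7 in HPBCD peri-infarct tissue, none lower, beside 10.5% and 30.3% of all genes. Cxcl13, the chemokine that draws B cells into follicles, had 0 to 6 counts in vehicle contralateral and 16 to 55 in vehicle peri-infarct libraries (log2 fold change 4.13, SE 0.64, adjusted p = 0.00265 in edgeR), and 0 to 4 against 57 to 111 with HPBCD (5.65, SE 0.52, adjusted p = 2.72e-06 in edgeR). Peri-infarct Cxcl13 was higher with HPBCD by 1.23 log2 units (SE 0.33, adjusted p = 0.0286 in edgeR). Cxcl12, a chemokine that holds plasma cells in their niche and is also made by vessels and meninges, was at 112 ± 31.0 CPM in HPBCD and 66.4 ± 6.72 CPM in vehicle peri-infarct tissue (log2 fold change 0.74, SE 0.16, adjusted p = 0.0164 in edgeR). Cxcr4, its receptor, was higher there by 1.39 log2 units (SE 0.36, adjusted p = 0.0252 in edgeR). In that comparison 3 of 8 such genes were called higher, beside 12.4% of all genes, and 0 lower, with a median of 0.68 against 0.01 over all genes.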

How the data were processed

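The authors prepared stranded mRNA libraries, sequenced paired reads, trimmed them with Trimmomatic 0.32, aligned them to GRCm38 with STAR 2.5.2b and assigned read pairs to Ensembl genes with HTSeq, according to the labels and the submitters' processing notes. The deposited values are raw counts, 1 table per library. The annotation release and strand option are not given in the sources used here. The 5 lines that name no gene were left out; they held 4.39% to 9.5% of read pairs without a feature, 3.94% to 8.03% ambiguous and 16.6% to 24.3% not aligned uniquely. No 2 tables were identical. Symbols, positions and exon lengths were taken from GENCODE M21, and printed sequences from its transcripts.

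Each pair of groups was compared with edgeR 4.0.16 in R 4.3.3 (quasi-likelihood F test, TMM factors, filterByExpr, 10 libraries, Benjamini-Hochberg adjustment over all genes tested, threshold 0.05). The region by treatment interaction used 20 libraries. The alternatives were DESeq2 1.42.0, RLE factors, no filter on low counts, a replicate block, all 4 groups in 1 fit, and leaving out each library. Summed counts were compared by exact binomial intervals and summed variable genes by exact permutation tests, in scipy 1.17.1. The tests were tried first on simulated counts of the vehicle region comparison with 200 genes changed 2-fold among 15801, of which edgeR recovered 70.5%, with 7.84% of its calls false, and DESeq2 77.5%, with 19.3% false.

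Libraries of the same number within a treatment share a mouse identifier, so regions are paired. Across genes, the deviations of paired libraries from their groups had a mean r of 0.0876 (10 pairs, 4 of them over 0.1), so the pairing rests on the identifier. Treatments were given to different mice. All 9 members are described. Of the lists, genes are named where called (at most 3 with the smallest adjusted p per list and comparison) or where they define the list. A ranking of genes by likeness to Igkc and Cd79b used Spearman's rho of CPM. Members and lists were chosen with earlier results of these data known.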

Additional observations from a re-analysis of the deposited data

Results flagged for a closer look

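In 36 group and gene combinations of 5 libraries with a count above the floor, 6 had a highest library far from the other 4 (Dixon's ratio above 0.71). Chance sets aside about 1 in 20 such groups, and the groups share libraries. HPBCD peri-infarct replicate 2 stood apart in Ighm (115 CPM, next 36.9 CPM) and in Jchain (7.51 CPM, next 3.01 CPM). HPBCD contralateral replicate 3 stood apart in Igkc (2.90 CPM, next 1.05 CPM) and in the summed variable genes (3.10 CPM, next 0.807 CPM), and this is the library with 636 CPM of choroid plexus markers. HPBCD contralateral replicate 4 stood apart in Ighm (71.0 CPM, next 49.3 CPM) with 0.381 CPM of Igkc, and in it 9.5% of read pairs had no feature and 8.03% were ambiguous, against at most 5.86% and 4.16% in the other 19 libraries. Vehicle peri-infarct replicate 3 stood apart in Cd79b (1.41 CPM, next 0.519 CPM).

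For 2 members the region difference itself differed between treatments by the interaction test of edgeR: Cd79a, by 3.54 log2 units (adjusted p = 0.0198), and Ighg2c, by -1.22 log2 units (adjusted p = 0.0193).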

How the results depend on the processing

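Depth limits Cd79a, Cd79b, Ighg2b, Ms4a1 and Mzb1, each under 50 counts in every library. Between treatments in peri-infarct tissue the number of members called ran from 1 to 3 when each library was left out, against 2 with all libraries. In the other comparisons that number stayed within 1.5 times the main one. Vehicle region calls numbered 3 and were 4 with DESeq2, without the filter and with all 4 groups in 1 fit, which added Ighg2b. HPBCD region calls numbered 5 and were 7 with DESeq2 and without the filter, which added Ighg2b and Mzb1. The replicate block kept 3 and 5 members in the region comparisons and raised the interaction from 2 to 3 by adding Cd79b, and it changed no other member call. Between treatments the block joins different mice that share only a number. Exchanging regions within mice, chosen after seeing the data, took the variable gene sums to p = 0.0625 in an exact permutation test for each treatment.

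Log2 fold changes that were not called with all libraries turned sign when libraries were left out, with these ranges. Ighm ran from -0.26 to 0.053 in the vehicle region comparison, from -0.86 to 0.0083 in the HPBCD region comparison, from -0.73 to 0.18 between treatments in peri-infarct and from -0.12 to 0.18 in contralateral tissue, and from -0.74 to 0.13 in the interaction. Between treatments in peri-infarct tissue Igkc ran from -0.39 to 0.72 and Jchain from -0.41 to 0.35. The Ighg2b interaction ran from -2.26 to 0.95 and was 0.078 with the replicate block, against -0.17. The cause was not tested. No member called with all libraries turned sign under the alternatives run.

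The number of all genes called moved more. It was 3471 between treatments in peri-infarct tissue and ran from 823 (without HPBCD replicate 3) to 5339 (without HPBCD replicate 2). In the interaction it was 1577, with 529 to 3121 when a library was left out and 2504 with DESeq2. In the vehicle region comparison it was 3195, with 2000 to 3920. In contralateral tissue it was 0, and 53 with DESeq2, 2 without the filter and 1 with the replicate block.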
